A study of Homo sapiens with 3 samples.

Results

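The barcodes described here were droplets rich in insulin RNA and poor in the nuclear RNA MALAT1. They were selected on 4 values of each barcode in the 3 count matrices: 300 or more genes with a UMI (a unique molecular identifier, which marks 1 captured RNA molecule), no more than 20% of UMIs from mitochondrially encoded genes, MALAT1 under 0.2% of UMIs, and INS at 300 or more per 10000 UMIs. Of 9889 barcodes in all, 787 were members. The CD49a-positive library held 589 of 4512 barcodes, or 13.1% (12.1 to 14.1%) with its exact binomial 95% interval. The CD49a-negative library held 100 of 2566, or 3.90% (3.18 to 4.72%), and the unsorted library 98 of 2811, or 3.49% (2.84 to 4.23%). Their RNA was compared with a reference of 2739 barcodes from the same libraries, which had INS at 300 or more per 10000, MALAT1 at 0.2% or more, 1000 or more genes and no more than 20% mitochondrial UMIs. The reference held 1418, 464 and 857 barcodes in the positive, negative and unsorted libraries, and every group of 3 values below keeps this order.

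All 3 libraries came from islets differentiated out of HUES8 cells, a long-established line of human embryonic stem cells. Cells were separated with magnetic beads and an antibody to CD49a, the integrin alpha 1 protein that the gene ITGA1 encodes. The enriched fraction (positive), the depleted fraction (negative) and unsorted cells were re-aggregated for 7 days, dispersed with TrypLE and sequenced as single cells, with 1 library per group and 1 cell line in all. With 1 library each, and with members selected on counts of the same libraries, no test was made: all values are descriptions, and all intervals cover counting error only.

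MALAT1 is a long non-coding RNA that stays in the nucleus, at the speckles where splicing factors gather, and it is among the most abundant RNAs of most cells. Insulin messenger RNA is translated at the endoplasmic reticulum of beta cells, in the cytoplasm, as is the messenger of IAPP (amylin, secreted with insulin). RNA that has not been spliced stays in the nucleus, so genes with long introns keep a large part of their RNA there. Whether the deposited counts include reads from introns is not given in the sources used here. The counts hold RNA and do not show whether a droplet contained a nucleus, so the class is called by its rule, MALAT1-poor and INS-rich, and its barcodes are called members.

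Members were far shallower than the reference. Their median depth was 2022, 7713 and 6855 UMIs, against 62359, 48722 and 63124 in the reference, and their median number of genes was 958, 2427 and 2256, against 9201, 8559 and 9203. Depths overlapped, since the 95th percentile of members, at 43379, 97117 and 96692 UMIs, lay above the 5th percentile of the reference, at 19133, 19469.6 and 25796. Members held 3.20%, 3.67% and 2.14% of all UMIs of their libraries. The share of mitochondrial UMIs had a median of 1.40%, 1.13% and 0.919% in members and of 8.12%, 7.47% and 7.40% in the reference.

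Members fell into 3 ranges of depth, with limits set after the data were seen. Under 2000 UMIs there were 290, 11 and 8 members, from 2000 to just under 10000 UMIs 238, 43 and 54, and from 10000 UMIs 61, 46 and 36. Shallow barcodes under 2000 UMIs made up 49.2% (45.1 to 53.4%) of the members in the positive library, but 11% (5.62 to 18.8%) in the negative one and 8.16% (3.59 to 15.5%) in the unsorted one. In sums over all members the deep ones dominated, with 70.9%, 93.2% and 87.4% of the UMIs. Sums over all members are therefore mainly those of deep barcodes, and sums of members under 10000 UMIs are given beside them.

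INS-rich barcodes of the middle range were nearly all MALAT1-poor. In that range, 85.3% (80.6 to 89.2%), 91.5% (79.6 to 97.6%) and 88.5% (77.8 to 95.3%) of INS-rich barcodes were under the MALAT1 limit. From 10000 UMIs the share was 4.26% (3.27 to 5.44%), 9.09% (6.73 to 11.9%) and 4.06% (2.86 to 5.58%). Pooled over both sides of the limit, INS-rich barcodes had MALAT1 at 0.127%, 0.295% and 0.0779% of UMIs in the middle range and at 1.24%, 1.10% and 1.21% from 10000 UMIs.

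**Figure D1:**
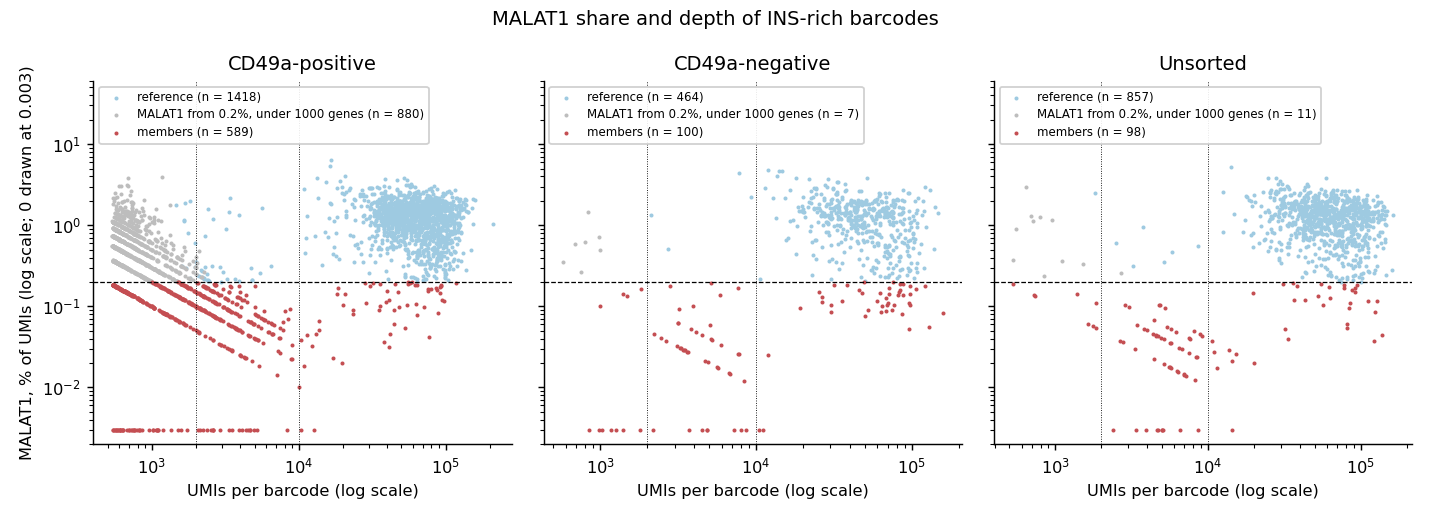
Each point is 1 INS-rich barcode, with its UMIs on the horizontal log axis and the MALAT1 percent of its UMIs on the vertical log axis (barcodes with 0 are drawn at the bottom), in 1 panel per library, with lines at the 0.2% limit and at 2000 and 10000 UMIs. In the middle range 238, 43 and 54 of the barcodes are members, and the positive library has a further 290 members under 2000 UMIs, where the other libraries have 11 and 8.

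Under 2000 UMIs few MALAT1 molecules decided who was a member. Of the 290 positive members in this range, 205 held at most 1 MALAT1 UMI. In 0 of the 290, 11 and 8 members of this range did the exact Poisson upper limit of MALAT1 lie under 0.2%, against 93, 32 and 46 of 238, 43 and 54 in the middle range and 43, 36 and 28 of 61, 46 and 36 from 10000 UMIs. The positive library also held 880 small INS-rich barcodes above the limit, with fewer than 1000 genes, where the negative library had 7 and the unsorted library 11. Of the 1176 positive INS-rich barcodes under 2000 UMIs, 24.7% (22.2 to 27.2%) were members, and MALAT1 made up 0.483% of the pooled UMIs of all of them.

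Among INS-rich barcodes with 300 or more genes, the MALAT1-poor share was 20.4% (18.9 to 21.9%), 17.5% (14.5 to 20.9%) and 10.1% (8.31 to 12.2%). With 1000 or more genes required it was 16.2% (14.5 to 18.1%) in the positive, 15.6% (12.7 to 18.9%) in the negative and 9.50% (7.71 to 11.6%) in the unsorted library. The intervals of the sorted libraries overlapped, and that of the unsorted library lay below both. Among barcodes with INS under 300 and as many genes, the MALAT1-poor share was 6.28% (4.60 to 8.33%), 6.10% (4.92 to 7.47%) and 8.79% (7.31 to 10.5%).

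Barcodes lay close together on either side of the MALAT1 limit. In the positive library 162 INS-rich barcodes had MALAT1 from 0.15 to 0.2% and 97 from 0.2 to 0.25%. Their median depths were 1239 and 1406 UMIs, and genes that span 100 kb or more gave 14.0% and 12.4% of their UMIs. In the negative library there were 16 barcodes inside and 13 outside, and in the unsorted library 12 and 18, with long-gene shares of 13.4% and 15.7% and of 14.2% and 16.5%. These barcodes were deep, with median depths of 60290 to 78105 UMIs. At INS from 300 to 350 there were 13, 4 and 2 members, and from 250 to 300 there were 12, 4 and 7 MALAT1-poor barcodes.

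In summed UMIs, all 4 genes that mark the class were higher in members than in the reference of each library. Levels are CPM, UMIs per 1000000 of the summed UMIs of a class in a library. INS stood at 112837, 81032 and 124262 CPM in members, against 82360.2, 71966 and 85448 in the reference. The folds were 1.37, 1.13 and 1.45, and since the rule set the INS level of both classes they only describe it. IAPP stood at 4913, 2464 and 3785 CPM against 1819, 1470.4 and 1796, with folds and exact intervals of 2.70 (2.66 to 2.74), 1.68 (1.64 to 1.72) and 2.11 (2.06 to 2.15). PCP4, a small calmodulin-binding protein, stood at 638, 395 and 396 CPM against 324, 213 and 274, with folds of 1.97, 1.86 and 1.45. TPT1, a growth-related protein whose messenger is controlled at translation, stood at 3762, 1942 and 2467 CPM against 1835, 1559.8 and 1595, with folds of 2.05, 1.25 and 1.55. For IAPP, PCP4 and TPT1 the lowest of the 3 member values was above the highest reference value. These markers were chosen with earlier results of these data known, so this only describes them. MALAT1, the other gene of the rule, stood at 1176, 1199.7 and 1034 CPM against 12715, 12233 and 12516.

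In members under 10000 UMIs, INS reached 117659, 165883 and 159846 CPM, IAPP 4681, 6403 and 12602, PCP4 924, 706 and 648 and TPT1 6429, 4249 and 5196. IAPP was uneven from barcode to barcode, so the folds of its summed UMIs do not describe the median member. Over all positive members its median was 17.5 UMIs per 10000 and its mean 43.5. Members of the middle range had medians of 20.1, 10.0 and 16.3 IAPP UMIs per 10000, means of 46.4, 63.8 and 114 and 95th percentiles of 162, 243 and 766. TPT1 was more even from barcode to barcode. Its medians in the middle range were 67.9, 40.9 and 51.0 per 10000, against 17.6, 14.5 and 15 in the reference, and its 5th percentiles there, 27.2, 16.7 and 20.2, lay above those reference medians.

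Across all eligible genes, more were called lower in members than higher, by a margin that depended on the scaling. A gene was eligible at 50 CPM and 20 UMIs in whichever class was higher, in each library, and was called at a 2-fold difference in the same direction in all 3 libraries, with 10 CPM added to both classes. Of 3934 eligible genes, 3 were higher in members (0.0763%) and 692 were lower (17.6%). The median log2 ratio over all eligible genes was -0.20, -0.26 and -0.29. With median-of-ratios size factors that median was 0.10, 0.00 and -0.01, and 135 genes were higher and 436 lower of 3840, so the split between directions depended on the scaling. Members under 10000 UMIs had 118 higher (3.33%) and 1228 lower genes (34.6%) of 3547, with medians of -0.75, -0.72 and -0.81. In the negative and unsorted libraries, 20 UMIs of these small sums were more than 50 CPM. The filter there asked more of genes higher in members than of lower ones, in the middle range too. It tilted these counts and medians towards lower genes. In the middle range alone 134 genes were higher and 1291 lower of 3502, and from 10000 UMIs 2 were higher and 565 lower of 3937. INS and MALAT1 of the same counts chose the members, so these shares describe the class and nothing is read from them.

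The 3 higher genes were RPS26 and RPL6, proteins of the cytosolic ribosome, and FTH1, the ferritin heavy chain that stores iron. RPS26 stood at 941, 1142 and 1100.3 CPM in members against 419.7, 518 and 517 in the reference. RPL6 stood at 1230.2, 1399.9 and 1291 CPM against 570.0, 649 and 619. FTH1 stood at 2773, 3445 and 2659.9 CPM against 1270.4, 1629 and 1306. For all 3 the lowest member value was above the highest reference value, which only describes genes picked as the highest of the same counts. With fewer libraries required to agree the count grew, to 24 without the positive, 7 without the negative and 14 without the unsorted library. The next 9 genes by rank came near 2-fold without reaching it in every library. They were NDUFB1, UQCRQ, ATP5F1E and NDUFA7, of the respiratory chain and ATP synthase, the ribosomal protein genes RPL41, RPL19, RPS13 and RPL32, and CRYBA2, a crystallin that islet cells express. CRYBA2 stood at 1758, 4450.0 and 3966 CPM against 878, 1828 and 1425, and in members under 10000 UMIs its log2 ratio was 0.84, 0.06 and 0.62.

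In those shallower members the 12 leading genes were TPT1 and RACK1, a scaffold protein on the small ribosomal subunit, the ribosomal protein genes RPS2, RPL31, RPL10A, RPL21, RPS4X, RPL37A, RPS14 and RPS27, and TOMM5 and UQCRB, for mitochondrial import and respiration. RPS2 stood at 3688, 2414 and 2768 CPM in members under 10000 UMIs and at 1947, 935 and 1225 in all members, against 813, 773 and 739 in the reference. Many ribosomal protein genes have near-identical pseudogenes, so the counts of single ones are uncertain.

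The 12 lowest genes were MALAT1 and 11 genes that span from 467 to 2305 kb. CCSER1 (ENSG00000184305; GRCh38, GENCODE release 29, chromosome 4, 90127535 to 91601913), a coiled-coil serine-rich protein gene of 1474 kb, stood at 851, 407 and 377 CPM against 5624, 4161 and 4866, with log2 ratios of -2.71, -3.32 and -3.66. CDH18, a cadherin of cell contacts, stood at 91.9, 50.8 and 72.1 CPM against 625, 387 and 504. PDE4D, a phosphodiesterase that breaks down cyclic AMP, stood at 347, 262 and 220.5 CPM against 1784, 1372 and 1575. RIMS2, a scaffold of the exocytosis machinery, stood at 217, 205 and 182 CPM against 1099, 1017 and 1031. The other 7 were SGCD (a sarcoglycan), KCNH7 (a potassium channel), STXBP5L (a syntaxin-binding protein), CNTNAP2 (a neurexin-like adhesion protein), NAV3 (neuron navigator 3), AGBL4 (a carboxypeptidase that trims tubulin) and DISC1FP1. Their log2 ratios lay between -2.94, for DISC1FP1 in the unsorted library, and -2.11, for NAV3 in the negative library. For each of the 12 genes the highest member value was below the lowest reference value. The genes were picked as the lowest of the same counts, and the rule itself set MALAT1 apart, so this only describes them. The share of all eligible genes with such a separation is not given here.

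**Figure D2:**
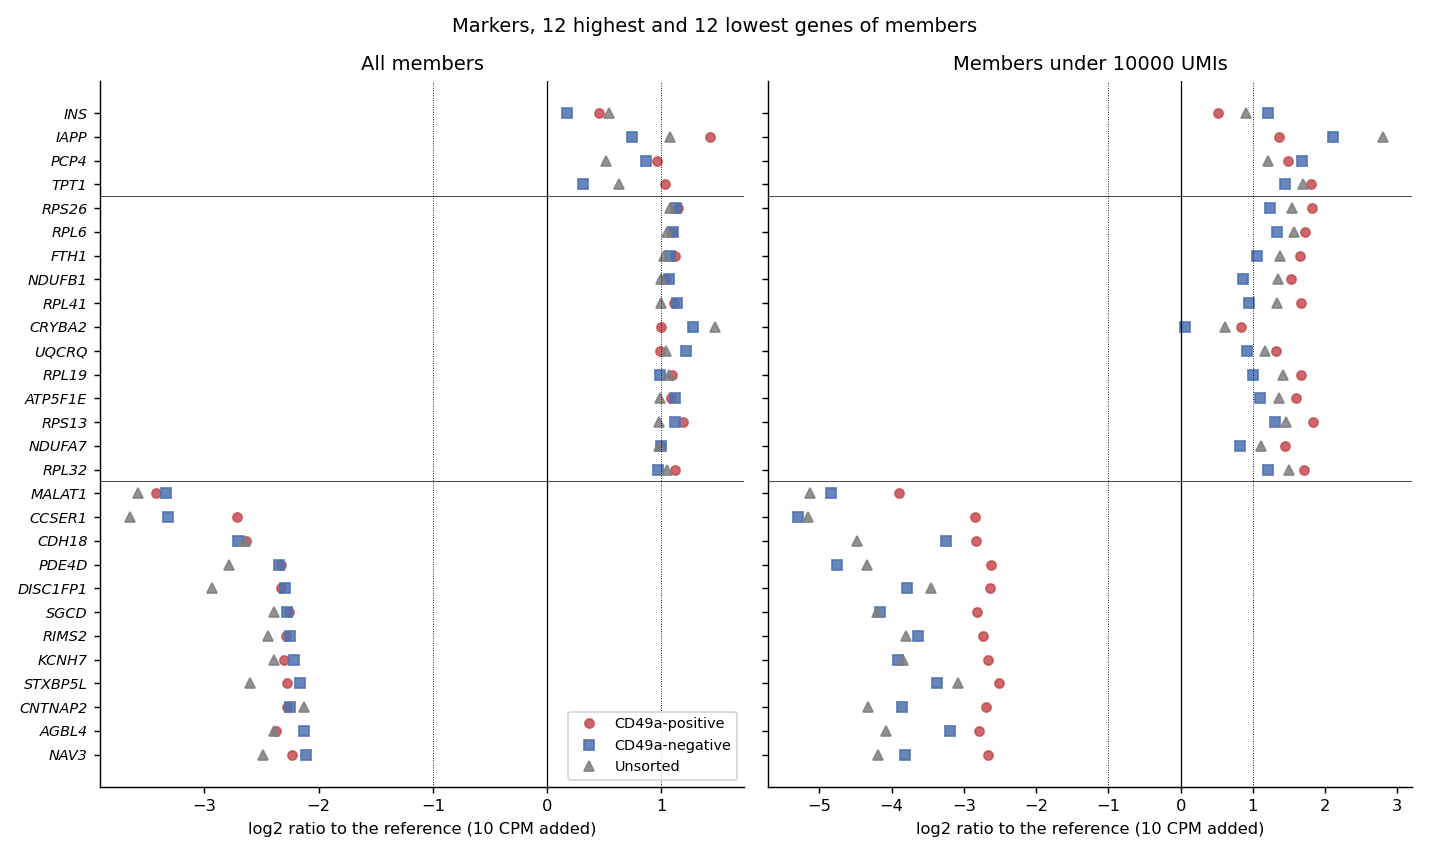
Log2 ratio of the CPM of members to that of the reference (10 CPM added to both) for the 4 markers, the 12 highest and the 12 lowest genes, with 1 symbol per library, in all members (left) and in members under 10000 UMIs (right). In all members RPS26, RPL6 and FTH1 are beyond 2-fold above the reference in every library, and CCSER1 lies at -2.71, -3.32 and -3.66.

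The lower genes were mostly long. They spanned a median of 301 kb, against 56.7 kb for all eligible genes and 7.94 kb for the 3 higher ones. Of the 1439 eligible genes that span 100 kb or more, 656 were lower (45.6%), against 30 of 1361 from 20 to 100 kb (2.20%), 0 of 773 from 5 to 20 kb and 1 of 341 under 5 kb. The median log2 ratio followed the span: it was -1.08, -1.0 and -1.16 from 100 kb, -0.11, -0.18 and -0.20 from 20 to 100 kb, 0.50, 0.41 and 0.53 from 5 to 20 kb and 0.66, 0.59 and 0.74 under 5 kb. Of 95 eligible long non-coding genes, 51 were lower (53.7%), against 636 of 3819 protein-coding genes.

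Single barcodes showed the same shift. Genes of 100 kb or more gave a median of 10.5%, 9.99% and 8.43% of the UMIs of a member and of 27.8%, 26.2% and 26.4% in the reference, whose 5th percentiles were 16.0%, 14.4% and 16.2%. Below these lay all 238, 43 and 54 members of the middle range, 51 of 61, 39 of 46 and 34 of 36 members from 10000 UMIs, and 206 of 290, 9 of 11 and 5 of 8 members under 2000 UMIs. Deep members, in the depth range of the reference, had medians of 13.2%, 12.7% and 12%. Of the small positive barcodes above the MALAT1 limit, 297 of 880 lay below the same percentile. Their median was 18.4%, between that of positive members under 2000 UMIs (13.2%) and that of the reference. MALAT1-poor barcodes with INS under 300 (63, 135 and 171 barcodes) had medians of 10.5%, 12.6% and 10.8%, so a low long-gene share was also present in barcodes that were not INS-rich.

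**Figure D3:**
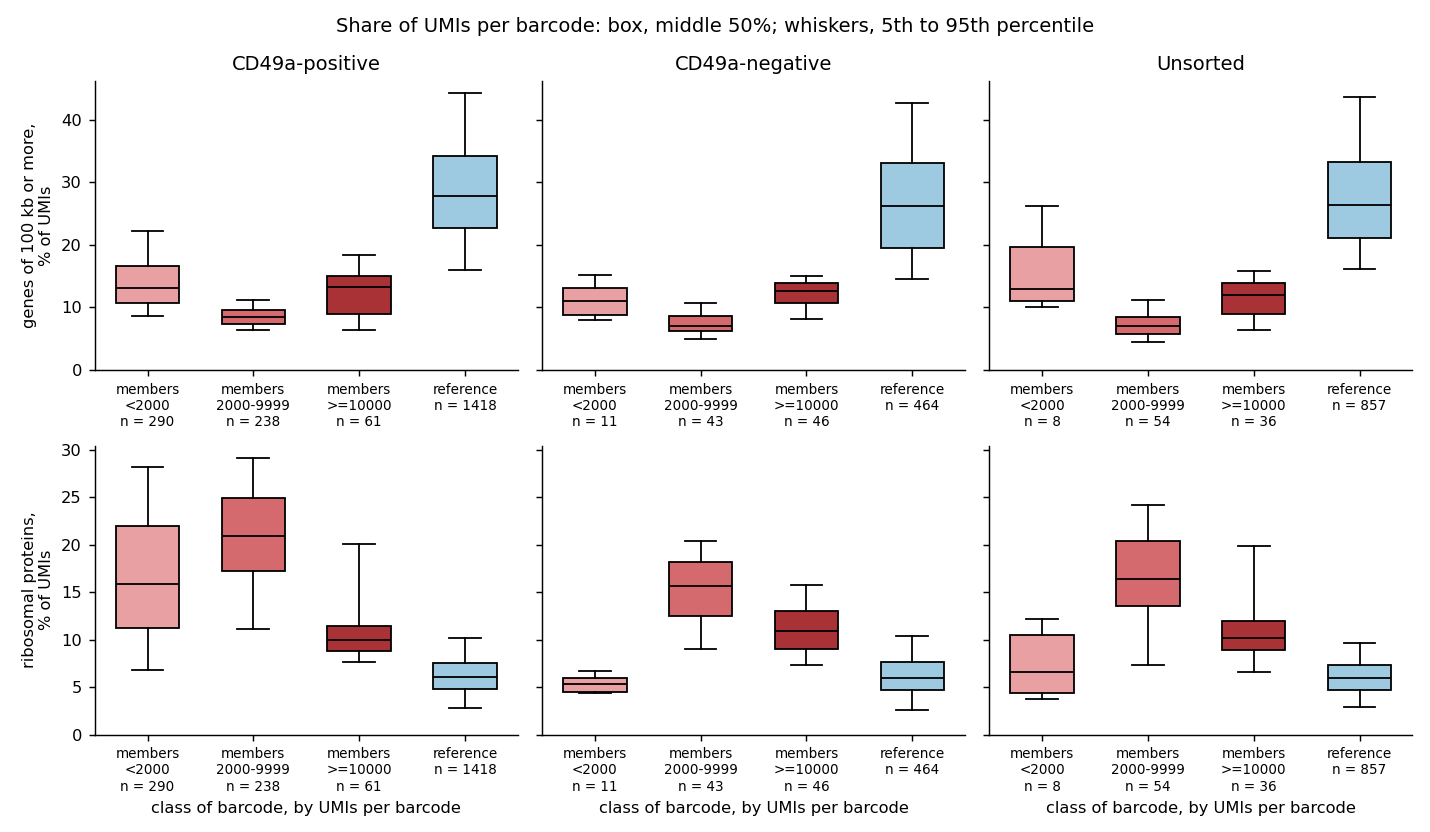
Percent of a barcode's UMIs from genes that span 100 kb or more (top) and from 78 ribosomal protein genes (bottom), for members in 3 ranges of depth and for the reference, by library; the line is the median, the box holds the middle 50% of barcodes and the whiskers run from the 5th to the 95th percentile. Long-gene medians of members lie between 6.98% and 13.2%, below the reference in every range, and ribosomal medians of the middle range are 20.9%, 15.7% and 16.4%, against 6.05%, 5.96% and 5.99% in the reference.

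At equal depth members still held fewer genes. Thinned to 1000 UMIs, they had a median of 575, 585 and 572 genes, against 684, 683 and 681 in the reference, with 148, 3 and 3 members left out as shallower. The unthinned medians were given above. A CCSER1 UMI was found in 48.5%, 19.6% and 22.1% of thinned members and in 87.4%, 74.1% and 80.3% of the thinned reference; before thinning, the shares were 81.7%, 60% and 63.3% and 99.4%, 93.5% and 97.7%. A PCP4 UMI was found in 52.8%, 36.1% and 36.8% of thinned members and in 25.2%, 17.9% and 19.5% of the thinned reference. Unthinned, the order of the classes was the opposite for PCP4, at 66.4%, 82% and 80.6% and 96.1%, 85.8% and 91.6%.

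The list of 11 nuclear-retained RNAs other than MALAT1 had 5 eligible ones. All 5 lay below the reference in every library, as did 2160 of all 3934 eligible genes. Of the 5, 3 were called lower, beside 17.6% of all eligible genes and 53.7% of the long non-coding ones. That share is near that of the long non-coding genes, so nothing particular to nuclear retention is read from it. FTX, a non-coding RNA of the X-inactivation centre, stood at 131, 152 and 119.8 CPM against 646, 627 and 611. KCNQ1OT1, an imprinted antisense RNA that silences its neighbours, stood at 17.9, 13.6 and 12.2 CPM against 95.5, 74.0 and 83.2. SNHG14, which hosts imprinted small nucleolar RNAs, stood at 240.1, 225 and 208 CPM against 687, 661 and 653. MIAT, at 28.3, 35.1 and 27.3 CPM against 71.7, 62.8 and 59.0, passed 2-fold in members under 10000 UMIs, and TUG1 was nearest to the reference, at 83.1, 67.5 and 74.6 CPM against 97.3, 90.6 and 90.5. The median log2 ratio of the 5 was -1.48, -1.52 and -1.60, beside -0.20, -0.26 and -0.29 for all eligible genes. Messengers of splicing and speckle proteins, which are translated in the cytoplasm, were not called over all members (0 of 15): their median of -0.24, -0.12 and -0.23 was near that of all genes and averaged 0.0161 over the libraries with size factors. In members under 10000 UMIs 4 of the 15 were lower, beside 34.6% of all genes, with medians of -0.86, -0.81 and -0.83. PNISR, a splicing-factor interacting protein, had the largest difference of them, at 96.1, 107 and 88.8 CPM against 178, 181 and 175.

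Of 20 adhesion and channel genes of long span, 17 were eligible and 16 were lower, beside 17.6% of all eligible genes and 45.6% of those that span 100 kb or more, with medians of -1.85, -1.84 and -2.04. After CCSER1, CDH18 and CNTNAP2 came ROBO2, an axon guidance receptor, at 183, 98.9 and 127 CPM against 774, 512 and 621. The list was drawn up with the low long genes known, so its count is no independent support.

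All 78 ribosomal protein genes were above the reference in every library, as were 1402 of the 3934 eligible genes. RPS26 and RPL6 passed 2-fold over all members, and 59 of 78 passed in members under 10000 UMIs, where 3.33% of all genes did. The median log2 ratio of the list was 1.0, 0.61 and 0.76 over all members and 1.64, 1.18 and 1.38 under 10000 UMIs. In single barcodes the list made up a median of 15.9%, 5.28% and 6.61% of UMIs under 2000 UMIs, 20.9%, 15.7% and 16.4% in the middle range and 9.93%, 11% and 10.2% from 10000 UMIs, against 6.05%, 5.96% and 5.99% in the reference. The 11 negative members under 2000 UMIs were thus the only ones whose median was below the reference. RPL13A was nearest to the reference, at 787, 511 and 586 CPM against 494, 444 and 466. Of 16 translation factors, 14 were above the reference in every library, beside the same 1402 of 3934, and 0 passed 2-fold over all members, while 6 passed under 10000 UMIs. BTF3, which acts on nascent chains, stood at 626, 585 and 520.0 CPM against 286, 328 and 292, and PABPC1, which binds the poly(A) tail, at 182, 173 and 175 CPM against 182, 176 and 178, level with the reference.

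Genes of oxidative metabolism were split by the genome that encodes them. All 23 nuclear-encoded respiratory chain genes were above the reference in every library, as were 1402 of all 3934 eligible genes. Their medians were 0.89, 0.93 and 0.93. Over all members 0 passed 2-fold, beside 0.0763% of all eligible genes, and under 10000 UMIs 6 passed, beside 3.33%. NDUFB1, of complex I, stood at 372, 487 and 478 CPM against 176, 227 and 234, and UQCRQ, of complex III, at 532, 805 and 652 CPM against 263, 341 and 311. The 13 mitochondrially encoded genes had medians of -0.52, -0.70 and -1.53. Of them 0 were called, beside 17.6% of all eligible genes called lower. Below the reference in every library were 12 of them, as were 2160 of all 3934 eligible genes. MT-ND2, of complex I, stood at 2449, 2196 and 1112 CPM against 4012, 3621 and 3938, while MT-CO2, of complex IV, stood at 17824, 19315 and 11393 CPM against 18993, 18301 and 18597 and was the exception, above the reference in the negative library. Under 10000 UMIs 10 of the 13 were lower, beside 34.6% of all genes, and MT-CO2 stood at 4377, 4295 and 1666 CPM. The sum of the 13 was 24549, 23331 and 9734 CPM under 10000 UMIs, 82319, 62503 and 40738 CPM in members from 10000 UMIs and 85108, 79631 and 81444 CPM in the reference. Depth moved with these sums, its part in the result was not tested, and the 20% limit capped the mitochondrial share of both classes.

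No gene of the secretory lists below was called over all members, nor was any of the 5 eligible islet peptide hormones. Of all eligible genes 0.0763% were higher and 17.6% lower. Of 13 eligible genes of prohormone processing and the granule 0 were called, and their medians were 0.14, 0.03 and 0.17, or -0.28, -0.04 and -0.01 under 10000 UMIs. PCSK1N, which inhibits a prohormone convertase, stood at 2870.2, 4901 and 4945 CPM against 2072, 2767 and 2509, whereas CPE, the carboxypeptidase that trims insulin, stood at 950.3, 799 and 1023 CPM against 898, 883 and 910.1. PAM, which amidates peptides, stood at 242, 215 and 240.0 CPM against 473, 363 and 421, and was called lower in members under 10000 UMIs. Of 14 eligible genes for entry into the endoplasmic reticulum, 10 were above the reference in every library, beside 1402 of all 3934, and 0 passed 2-fold, with medians of 0.49, 0.42 and 0.46. SRP14, of the signal recognition particle, stood at 911, 1047 and 994 CPM against 501, 572 and 528. Of 15 eligible folding and unfolded-protein-response genes 0 were called, with medians of 0.14, -0.05 and 0.15.

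Other cytoplasmic lists held no called gene over all members, where 0.0763% of all eligible genes were higher and 17.6% lower. GAPDH had the largest difference of 10 eligible glycolysis genes, at 1186, 1798 and 2007 CPM against 708, 1028 and 899, and the list's medians were 0.34, 0.26 and 0.53. All 14 eligible cytoskeletal genes were above the reference in every library, as were 1402 of all 3934 eligible genes, with medians of 0.63, 0.47 and 0.65. TMSB10, a thymosin that binds actin, stood at 1316, 1503 and 1247 CPM against 637, 679 and 692. Medians were 0.33, 0.02 and 0.17 for 7 heat shock genes and 0.03, -0.14 and -0.07 for 9 cholesterol synthesis genes. BAX was the only eligible one of 12 genes of cell death and the p53 response, at 138, 147 and 150.0 CPM against 91.8, 113 and 96.6, and 0 of 7 metallothioneins were eligible.

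Of 12 eligible islet transcription factors 0 were called over all members, beside 0.0763% of all eligible genes higher and 17.6% lower. Their medians were 0.02, -0.05 and -0.09. FEV, known from serotonin neurons and enterochromaffin cells, had the largest difference, at 122, 499.7 and 460.1 CPM against 60.9, 218 and 142. Its log2 ratios were 0.89, 1.16 and 1.63. In members under 10000 UMIs FEV stood at 43.1, 95.6 and 220 CPM, below the reference in the positive and negative libraries. ISL1, needed for endocrine cells, stood at 418, 315 and 344 CPM against 389, 332 and 356. RFX6, which acts early in endocrine development, stood at 76.7, 72.4 and 70.5 CPM against 164, 139 and 154, and was called lower in members under 10000 UMIs. Immediate early genes, which respond within minutes to stress and dissociation, had 8 eligible members, 0 called, and medians of 0.01, 0.25 and 0.25. Under 10000 UMIs the medians were -0.88, -1.55 and -0.89, and 2 of 6 eligible ones, FOS and EGR1, were lower, a share near the 34.6% of all genes.

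**Figure D4:**
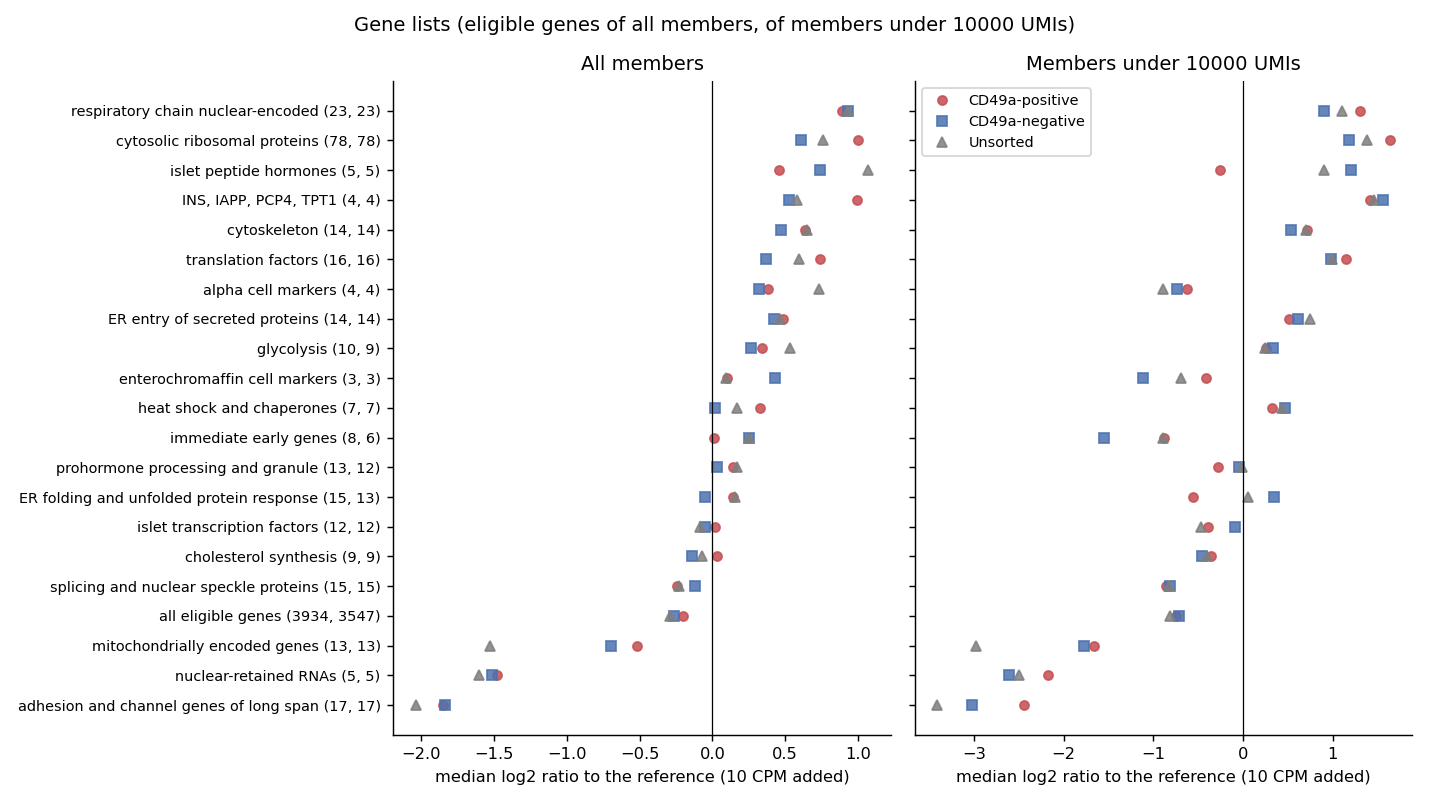
Median log2 ratio of members to the reference over the eligible genes of each list, with 1 symbol per library, in all members and in members under 10000 UMIs. Over all members the respiratory chain (0.89, 0.93 and 0.93) and ribosomal proteins (1.0, 0.61 and 0.76) lie above the reference, and nuclear-retained RNAs (-1.48, -1.52 and -1.60) and long adhesion and channel genes (-1.85, -1.84 and -2.04) lowest.

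Hormones of other islet cells were present in members too. GCG, glucagon of alpha cells, reached 300 per 10000 in 2.55% (1.43 to 4.17%), 15% (8.65 to 23.5%) and 9.18% (4.29 to 16.7%) of members, against 3.81% (2.87 to 4.94%), 12.7% (9.82 to 16.1%) and 7.58% (5.90 to 9.57%) of the reference, and the intervals overlapped in each library. SST, somatostatin of delta cells, reached 300 in 0.849% (0.276 to 1.97%), 11% (5.62 to 18.8%) and 8.16% (3.59 to 15.5%) of members and in 2.40% (1.67 to 3.33%), 4.74% (2.99 to 7.09%) and 3.62% (2.47 to 5.10%) of the reference. In members from 10000 UMIs, GCG reached 300 in 4 of 61, 11 of 46 and 7 of 36, against 5 of 238, 2 of 43 and 1 of 54 in the middle range. At least 1 GCG UMI was found in 87.9%, 94.0% and 93.9% of members and in 98.1%, 98.9% and 99.6% of the reference, so single UMIs were not read as expression.

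The 8 alpha cell markers, all detected, summed to 28999.8, 53263 and 55277 CPM in members and 18919.9, 34053 and 26485 in the reference. Most of this was TTR, at 22268, 34552 and 37484 CPM in members and 14419, 20950 and 17692 in the reference. In members under 10000 UMIs the 8 markers summed to 22922, 39198 and 31810.4 CPM, of which TTR made up 20108, 30618 and 27911. The median log2 ratio of the 4 eligible ones was 0.38, 0.32 and 0.73 over all members. It was -0.63, -0.74 and -0.89 under 10000 UMIs, so sum and median differed in sign there. In those members 3 of the 4 were below the reference in every library, as were 2281 of all 3547 eligible genes. GCG stood at 2582, 8243 and 3663 CPM against 3843, 12324 and 8126. The 8 enterochromaffin markers, all detected, summed to 391, 1085 and 889 CPM against 369, 694 and 572. The 6 delta, epsilon and PP cell markers, all detected, summed to 3535, 12197 and 8193 CPM against 2672, 4629.5 and 3631, mostly SST, which stood at 3323, 12104 and 8018 CPM against 2528, 4547 and 3517. PTPRN2 and LMX1A were the called ones of these lists, both lower. They were 1 of 4 eligible alpha cell markers and 1 of 3 eligible enterochromaffin markers, beside 17.6% of all eligible genes. Nothing about cell type is read from them. The part of other endocrine cells, of free RNA and of doublets in the member profiles was not tested.

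Markers of cell types outside the endocrine islet were low, and some of each such list were at 0. The 10 markers of red cells and platelets, cells that lack a nucleus in the body, had 1, 4 and 0 UMIs in members, with HBB and PPBP at 0 in each library. The 9 mesenchymal and endothelial markers had 4, 5 and 6 UMIs, with DCN, LUM, CDH5 and PLVAP at 0. The 5 immune markers had 131, 124 and 108 UMIs and summed to 32.2, 38.2 and 44.0 CPM against 24.4, 27.4 and 26.7, nearly all CD68 and CD74, with PTPRC and CD3E at 0. The 10 duct and acinar markers had 192, 192 and 172 UMIs and summed to 47.2, 59.2 and 70.1 CPM against 48.4, 52.7 and 41.8, mostly KRT19, with CPA1 at 0. The 6 proliferation markers, which mark dividing cells and not a cell type, summed to 2.21, 62.2 and 22.4 CPM against 15.8, 32.5 and 33.7. Their sum was above the reference in the negative library only. No gene of these 5 lists was eligible.

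Within members, few genes differed between libraries by 2-fold. The positive library had 23 genes higher (0.682%) and 21 lower (0.622%) than the negative library, of 3374 eligible. Against the unsorted library it had 13 higher (0.394%) and 14 lower (0.424%) of 3298. The negative library had 6 higher (0.185%) and 2 lower (0.0618%) than the unsorted library, of 3237. In the reference the same counts were 1 and 9 of 4052, 0 and 3 of 3941, and 1 and 0 of 3971, from many more barcodes. In the middle range of depth, the positive library had 77 genes higher and 19 lower than the negative library, of 2129.

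The 6 genes furthest below in positive against negative members were NPW, CARTPT, SERPINA1, FEV, SST and COL5A2. SST stood at 3323, 12104 and 8018 CPM in members, and in the middle range at 421, 12069 and 12199 CPM. There 0 of 238 positive members, 5 of 43 negative and 5 of 54 unsorted members reached 300 per 10000, and the 0 allows a share of up to 1.54% (exact binomial). The median member of that range had 0, 2.14 and 1.34 SST UMIs per 10000, so the sums do not describe the median member. The part of the sums that barcodes at 300 or more held is not given here. NPW, neuropeptide W, stood at 75.2, 472 and 131 CPM in members and at 73.3, 239 and 71.7 in the reference, so both classes were highest in the negative library. FEV had 122, 499.7 and 460.1 CPM in members and 60.9, 218 and 142 in the reference. CARTPT, a neuroendocrine peptide, had 1.23, 52.7 and 21.2 CPM in members, from 5 positive and 171 negative UMIs. SERPINA1 (alpha-1 antitrypsin) had 13.5, 81.6 and 23.6 CPM in members and 15.3, 35.7 and 17.2 in the reference. COL5A2 (a collagen chain) had 44.5, 153 and 108 CPM in members and 32.2, 104 and 89.1 in the reference, and for both genes the positive library was lowest and the negative one highest in either class. Against the unsorted library, GCG was also among the lowest in positive members, at 6352, 18149.9 and 17277 CPM, with CRYBA2, IGFBP2 (a growth factor binding protein) and the chemokine CXCL1, which had 7.13, 30.2 and 53 CPM.

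Genes high in positive members were of several kinds. NEFM, a neurofilament subunit, stood at 411, 100.1 and 238 CPM in members, a positive-to-negative fold of 4.11 (3.64 to 4.64), and at 231, 198 and 233 CPM in the reference. RBP4, the retinol carrier, stood at 201, 62.5 and 143 CPM in members and at 129, 57.3 and 94.5 in the reference, with the same order in both classes. PCDH7, a protocadherin, stood at 283, 93.0 and 150.4 CPM in members and at 875, 542 and 696 in the reference. RPL23 stood at 959, 384 and 469 CPM in members and CRTAC1, a secreted cartilage protein, at 64.9, 20.6 and 29.7. MT-ND6, of complex I, stood at 115, 23.7 and 41.2 CPM, and with MT-ND2, MT-ND5, MT-ATP6 and CCSER1 it was also among the 6 genes furthest above the unsorted library. Depth differed as well, with a median of 2022 UMIs in positive members against 7713 and 6855, and its part in these differences was not tested.

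ITGA1, which encodes the protein used for the sort, was the other of the 6 genes furthest above the unsorted library, next after MT-ND6 by log2 ratio. It stood at 74.0, 27.1 and 26.9 CPM in members and at 123, 62.1 and 98.0 in the reference. The positive library was highest in both classes, while the unsorted library was level with the negative one in members and nearer the positive one in the reference. The positive-to-unsorted fold in members was 2.75 (2.10 to 3.65), from 301 and 66 UMIs.

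**Figure D5:**
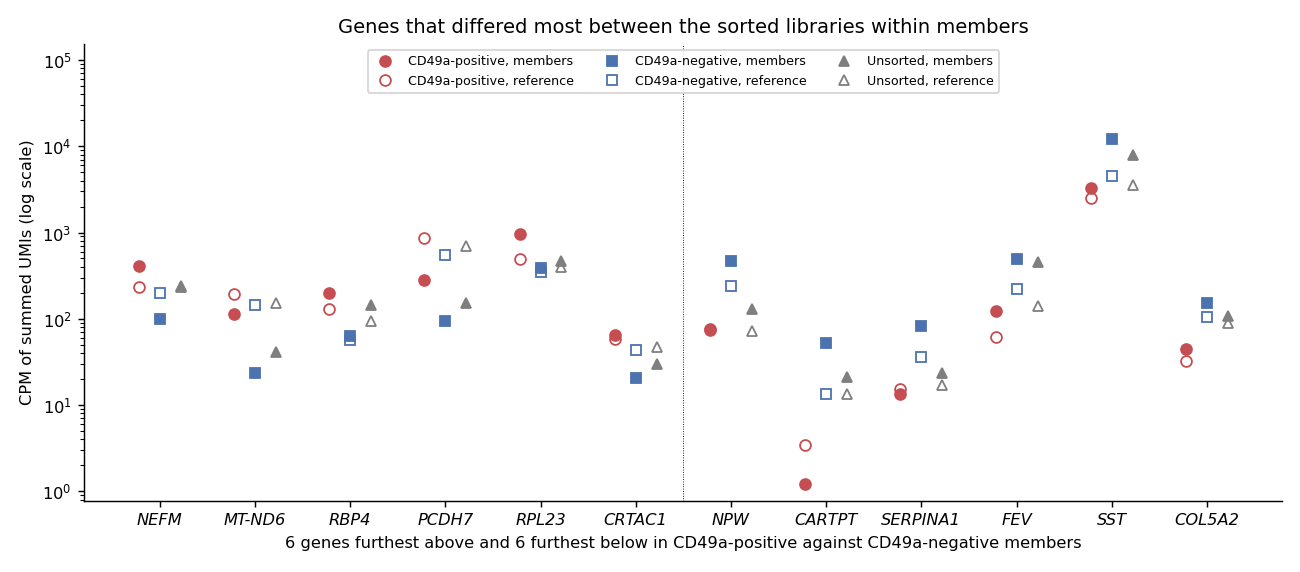
CPM (log axis) of the genes furthest above and below in positive members, for members and for the reference of each library. NEFM stands at 411, 100.1 and 238 CPM and SST at 3323, 12104 and 8018 CPM in members, and NPW is highest in the negative library in both classes.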

How the data were processed

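Single-cell RNA was measured in 3 droplet libraries. The authors deposited UMI counts, which are whole numbers for each gene and barcode; the submitters' processing notes name Cell Ranger 7.1.0 and GRCh38, and other settings are not given in the sources used here. Each matrix held 36601 genes, and the libraries held 127119509 (positive), 88397368 (negative) and 114479071 UMIs (unsorted). Barcode sequences shared between pairs of libraries numbered 6, 2 and 4, and none was a member in both.

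UMIs were summed for each library and class and scaled to CPM, since cells are not replicates. With 1 library per group no test was made. Sums have exact Poisson intervals, shares exact binomial (Clopper-Pearson) intervals and folds exact conditional intervals, at 95%. Adding 10 CPM to both classes before a log2 ratio makes the changes of low genes look smaller. No doublet caller was run; leaving out the deepest 10% of the reference was an alternative. Gene spans came from GENCODE release 29, matched by identifier for 34616 genes (94.6%) and 99.9% of eligible genes; the release behind the counts is not given in the sources used here. Genes were named by rule: the 4 markers and MALAT1, the 12 highest and 12 lowest eligible genes, ranked by the ratio nearest 0 over the libraries, up to 4 per list with the largest ratios and the least changed one, and 6 per direction between libraries; clone-named and Y-linked genes and XIST were left out. The members and the 28 gene lists were chosen with earlier results of these data known, and the ranges of depth after the data were seen. Alternatives covered the limits of the rule, the CPM added, scaling, weighting, thinning and low genes.

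On counts simulated for this purpose, with 200 genes changed, the call rule over all members found 100% of genes raised 3-fold and 91.2% of those lowered 3-fold, and for members under 10000 UMIs 91.2% and 67.6%. Of genes changed 1.5-fold or not at all, 0% were called in either comparison. Both classes were drawn as Poisson counts from the profile of the reference, with the observed totals. Variation between barcodes was not simulated, so these shares cover counting error only. Python 3.11.15, numpy 2.4.6, scipy 1.17.1, pandas 2.3.3 and matplotlib 3.10.9 were used, with seed 0.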

Additional observations from a re-analysis of the deposited data

Results flagged for a closer look

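Barcodes over 20% mitochondrial UMIs that otherwise met the rule were not used in the comparisons. They made up 2.79% of positive barcodes (126; exact binomial 95% interval 2.33 to 3.32%) and 0.507% of negative barcodes (13; 0.270 to 0.865%), and were listed because both shares were above the 0.391% (11; 0.196 to 0.699%) of the unsorted library, although the negative interval overlapped that of the unsorted library. Their median depth was 950, 3017 and 2879 UMIs, and long genes gave 11.2%, 5.50% and 5.88% of their UMIs.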

How the results depend on the processing

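Settings named here changed 1 choice at a time, except that the 0.1% and 0.5% MALAT1 limits of members and reference were also changed together; those by depth and by the MALAT1 upper limit were chosen after seeing the data. The positive library's member share of 13.1% became 6.21% with MALAT1 under 0.1%, 25.3% with MALAT1 under 0.5%, 6.56% with INS from 1000, 10.5% from 500 genes and 11.8% with at most 10% mitochondrial UMIs. With MALAT1 under 0.1%, MALAT1 under 0.5% and INS from 1000, the negative share of 3.90% became 2.30%, 6.47% and 1.95%, and the unsorted share of 3.49% became 2.49%, 6.72% and 1.96%. The 3 higher genes became 60 with members under 0.1% MALAT1, 112 with the reference also from 0.5%, 0 with INS from 1000, 14 with at most 10% mitochondrial UMIs, 11 with 1 CPM added, 135 with size factors, 5 without INS and mitochondrial genes, 70 with each barcode weighted equally, 33 without the deepest 10% of the reference, 72 when thinned, 1 under 2000 UMIs, 134 in the middle range, 118 under 10000 UMIs and 9 with the MALAT1 upper limit under 0.2%, and ranged from 7 to 24 with 1 library left out. The 692 lower genes became 1097 with members under 0.1% and the reference from 0.5% MALAT1, 233 with 50 CPM added, 436 with size factors, 1291 in the middle range and 1228 under 10000 UMIs, and ranged from 703 to 835 with 1 library left out. Between positive and negative members, 23 higher genes became 9 with 50 CPM added, 52 with equal weights and 77 in the middle range, and 21 lower genes became 9, 43 with equal weights and 43 with no filter. Between positive and unsorted members, 13 and 14 became 4 and 4 with 50 CPM added and 74 and 50 with equal weights, and 64 were higher in the middle range. Between negative and unsorted members, 6 and 2 became 1 and 0 with 50 CPM added, 23 and 22 with equal weights and 32 and 43 in the middle range. Thinned to 500 instead of 1000 UMIs, members had 88.6% instead of 84.6% of the genes of the reference. Changes of sign were counted only where all 3 libraries had 1 sign at the main setting. Median log2 ratios, as means over the libraries, changed sign by this count as follows. The granule list (0.11) had -0.000142 under 0.1% MALAT1, -0.19 in the middle range and -0.14 under 10000 UMIs. Immediate early genes (0.17) had -0.0549 under 0.1% MALAT1, -0.0167 with the reference also from 0.5%, -0.18 with INS from 1000, -0.31 with equal weights, -0.26 thinned, -1.09 under 2000 UMIs, -0.91 in the middle range and -0.80 under 10000 UMIs. Alpha cell markers (0.48) had -0.00997 under 0.1% MALAT1, -0.000382 with equal weights, -0.20 thinned, -0.44 under 2000 UMIs, -0.83 in the middle range and -0.75 under 10000 UMIs. Enterochromaffin cell markers (0.21) had -1.48 under 2000 UMIs, -0.79 in the middle range and -0.74 under 10000 UMIs, splicing proteins (-0.20) had 0.0161 with size factors, and UQCRQ (1.08) had -0.16 under 2000 UMIs. The cause of these changes was not tested, apart from settings that by construction hold fewer genes or libraries. Of other list medians 223 moved by less than their spread over the libraries and 130 by more. For other ratios of named genes these counts were 322 and 286. None of these was counted as a change of sign, but lists of mixed sign at the main setting could not be counted so. Depth limits what members under 2000 UMIs show: 1555 genes were eligible there, against 3934 in all members. Members and reference were compared within each library throughout. No paired analysis was possible because sort groups had 1 library each, with no replicate numbers to pair.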
